A study of Mus musculus with 12 samples.

Results

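The genes described here are the 5 NF-kB subunits, Rel, Rela, Relb, Nfkb1 and Nfkb2, the 3 classical IkB inhibitors, Nfkbia, Nfkbib and Nfkbie, and the nuclear IkB proteins, Nfkbiz and Bcl3. They were found through the RefSeq transcript that each array probe names, which gave 15 probes for the 10 genes, out of 13283 named genes tested. All 15 probes were well above background on all 12 arrays. The arrays measured RNA of macrophages from the abdominal cavity of C57/BL6 mice, either wild type (WT) or GPR15 knockout (KO), which lack a G protein-coupled receptor. The cells of all groups were cultured in DMEM with 10% FBS and were given either PBS or, at 100 ng/ml, the bacterial endotoxin LPS, sensed by Toll-like receptor TLR4, for 4 h. WT with PBS, WT with LPS, KO with PBS and KO with LPS each had 3 arrays, and the construction of the knockout and the age of the mice are not given in the sources used here. The labels do not say whether replicates came from separate mice, so the p-values measure the spread between these samples, which may be technical.

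NF-kB is a dimer of Rel-family proteins that waits in the cytoplasm of a resting macrophage, bound by IkB. A signal from TLR4 activates the IkB kinase complex, IKK, the IkB is destroyed, and the freed dimer switches on genes of inflammation, among them the genes of IkB and of NF-kB subunits themselves. Rela, Rel and Relb carry activation domains, Nfkb1 and Nfkb2 encode long precursors that are cut to their DNA-binding forms, and the nuclear proteins encoded by Nfkbiz and Bcl3 join NF-kB at target genes.

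NF-kB dimers bind a short element called kappaB, so the start-site regions of the genes that rise with LPS in these data are shown first. The RefSeq promoter table of GRCm38.p6 holds windows of 250 bases before to 50 after a start for 7 of the 10 genes. The kappaB consensus was searched on both strands and was present in 5 of these 7, Rel, Nfkb2, Nfkbia, Nfkbie and Bcl3, whereas 9.55% of all 27025 genes in the table have a promoter that holds it. In the stretches below, 5′ to 3′ along the gene, capitals mark matches of the consensus, which can overlap each other. Those of Rel (chr11:23770970-23771089, minus strand), Nfkb2 (chr19:46304617-46304736, plus), Nfkbia (chr12:55492648-55492767, minus) and Nfkbie (chr17:45555580-45555699, plus) are the 120 bases before the start. The short windows of Bcl3 (chr7:19822734-19822763, minus) and of the second start of Nfkb2 (chr19:46305695-46305724, plus) lie around a match just after the start.
Rel: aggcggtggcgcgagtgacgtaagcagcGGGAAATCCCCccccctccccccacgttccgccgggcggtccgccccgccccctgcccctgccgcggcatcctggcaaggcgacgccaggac
Nfkb2: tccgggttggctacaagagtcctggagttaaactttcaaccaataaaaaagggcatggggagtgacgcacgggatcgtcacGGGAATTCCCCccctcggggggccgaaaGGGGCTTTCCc
Nfkb2, second start: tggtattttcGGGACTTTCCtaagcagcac
Nfkbia: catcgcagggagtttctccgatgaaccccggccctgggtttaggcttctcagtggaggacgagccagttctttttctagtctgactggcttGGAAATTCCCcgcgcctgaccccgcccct
Nfkbie: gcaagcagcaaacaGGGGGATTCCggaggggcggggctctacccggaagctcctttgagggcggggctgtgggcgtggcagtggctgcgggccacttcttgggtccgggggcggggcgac
Bcl3: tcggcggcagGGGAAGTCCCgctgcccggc
A match describes these letters and does not show that a factor binds there. The windows of Rela and Nfkbib held no match, and those of Relb, Nfkb1 and Nfkbiz were not searched.

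The 12 arrays lay on 2 slides with a scan each, the first with the 6 WT arrays and the KO arrays PBS 1 and PBS 2, the other with the remaining KO PBS array, replicate 3, beside the 3 KO arrays given LPS. KO and WT cells after LPS thus never shared a slide. Gpr15 had 1 probe, which was above background on 0 of 12 arrays, so the arrays do not check the genotype. Of the macrophage markers, 11 of 11 were above background on all arrays. B-cell markers, 9 of 9 on the array, were also above background throughout, and the sum of their scaled linear signals was 133 to 169 in WT PBS, 70.6 to 84.5 in WT LPS, 111 to 117 in KO PBS and 57.1 to 58.3 in KO LPS. Mast-cell markers, 6 of 7 of them above background on all arrays, summed to 111 to 149 in WT PBS, 240 to 262 in WT LPS, 98.7 to 116 in KO PBS and 187 to 204 in KO LPS. In WT 3 of these 7 rose with LPS, Hdc from 5.71 to 7.25 on the scaled log2 scale, and 2 fell, Kit and Ms4a2. T-cell markers, 9 of 10 above background on all arrays, summed to 23.4 to 30.1 in WT PBS, 15.4 to 16.7 in WT LPS, 21.4 to 23.8 in KO PBS and 15.7 to 17.3 in KO LPS. Of 8 neutrophil markers on the array 4 (Elane, Camp, S100a8 and S100a9) were above background on all arrays and 3 (Ngp, Ltf and Cxcr2) on 0, and the sums were 3.16 to 4.15 in WT PBS, 4.11 to 10.3 in WT LPS, 5.85 to 9.11 in KO PBS and 7.94 to 10 in KO LPS. Of 7 mesothelial and fibroblast markers 3 (Col1a2, Dcn and Pdpn) were above background on all arrays and 3 (Upk3b, Wt1 and Col1a1) on 0, and the sums were 7.6 to 19 in WT PBS, 51.9 to 66 in WT LPS, 7.82 to 9.19 in KO PBS and 42.1 to 48.7 in KO LPS. In WT Pdpn, which macrophages can also express, went from 3.69 to 5.87 on the scaled log2 scale. Of 5 dendritic-cell markers 2 (Flt3 and Siglech) were above background on all arrays and 1 (Xcr1) on 0. Their sums were 160 to 179 in WT PBS and 170 to 206 in WT LPS. In KO they were 150 to 168 with PBS and 184 to 188 with LPS. Xist was above background on the WT arrays and not on the KO arrays, and Ddx3y, Kdm5d and Uty on the KO arrays and not on the WT arrays, so genotype and the sex of the mice cannot be told apart.

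After 4 h of LPS, RNA of all 10 genes rose in WT cells, and all 10 rose in KO cells. The rises ran from 1.59-fold for Rela to 5.88-fold for Nfkbiz in WT, and from 1.51-fold to 6.74-fold for the same genes in KO. Among all genes tested, 33.7% were called higher in WT and 35.1% in KO, at an adjusted p under 0.05 in limma. For all 10 genes every LPS array lay above every PBS array of its genotype, as was so for 36.8% of all genes in WT and 37.5% in KO. The median change was 1.17 in WT and 1.15 in KO on the log2 scale, against 0.03 and 0.04 over all genes. In these bulk samples a different number of cells of a type and a different amount of RNA per cell cannot be told apart. The B-cell and T-cell marker sums were lower with LPS in both genotypes and the mast-cell and the mesothelial and fibroblast sums higher, as given above. Dendritic-cell sums were higher with LPS in KO and overlapped in WT. Siglech, at 7.38 in WT PBS and 7.53 in WT LPS on the scaled log2 scale, was by far the brightest marker in that sum. Of 3 dendritic-cell markers tested, 2 (Flt3 and Zbtb46) were called higher with LPS in WT, and 3 were in KO. Flt3 went from -1.82 to -0.55 in WT. The part of these cells in the rises was not tested.

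**Figure D1:**
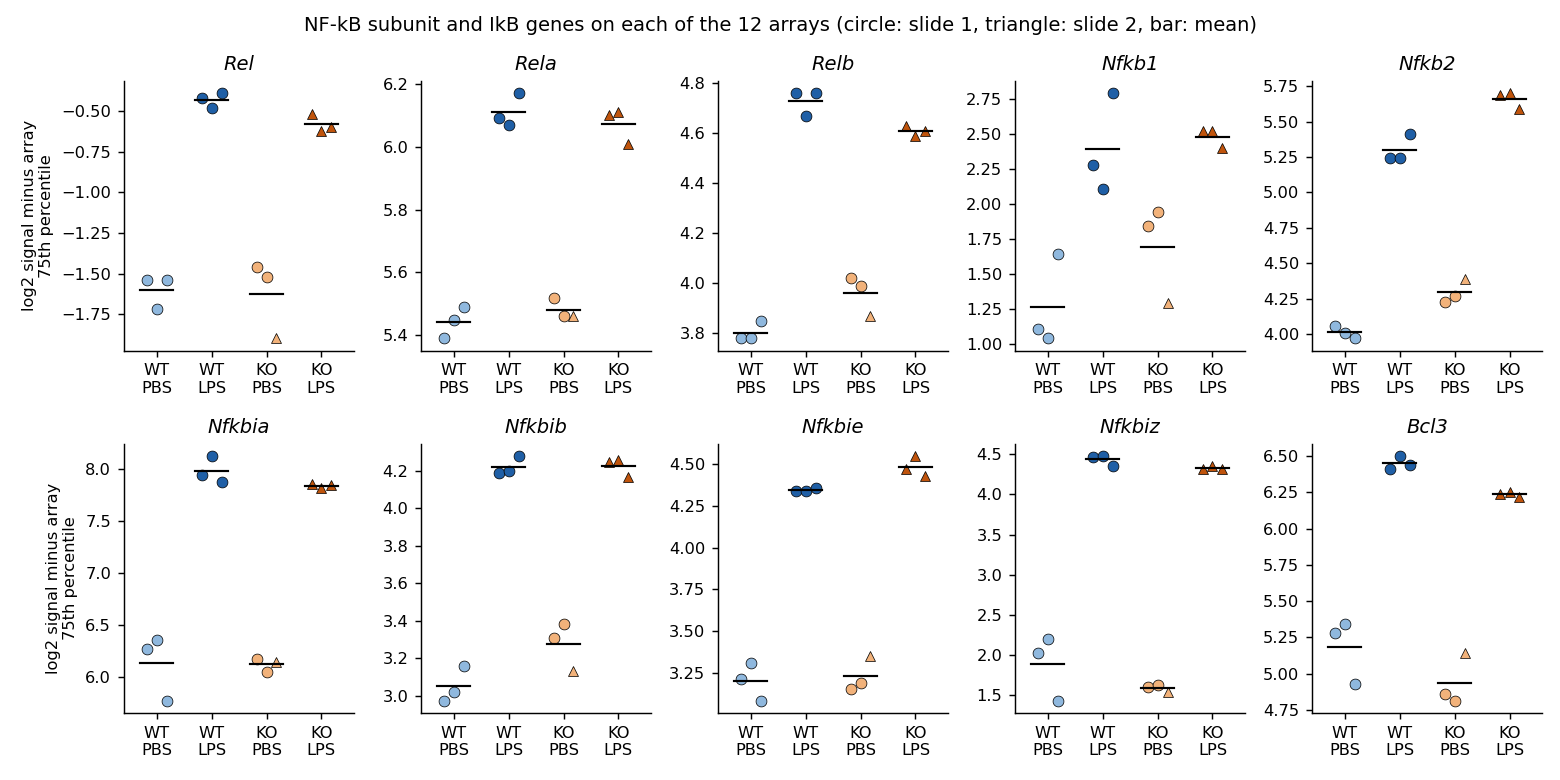
Each panel plots 1 gene, with the log2 signal minus the array's 75th percentile on a vertical axis of its own and the 4 groups of 3 arrays along the horizontal axis; circles are arrays of slide 1, triangles arrays of slide 2, and bars are group means. In every panel the LPS arrays lie above the PBS arrays of the same genotype, and the WT PBS points spread most for Nfkbiz (SD 0.41), the KO PBS points for Nfkb1 (SD 0.35).

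The levels below are log2 signals minus the array's 75th percentile, which serve to compare groups for 1 gene and not genes with each other. Rela, the main transactivating subunit of the canonical dimer, stood at 5.39, 5.45 and 5.49 in WT PBS and at 6.09, 6.07 and 6.17 in WT LPS. In KO cells it stood at 5.52, 5.46 and 5.46 with PBS and at 6.10, 6.11 and 6.01 with LPS. The 4 groups were tight and the 2 LPS groups overlapped. The rise was 0.67 ± 0.05 (SE) in WT and 0.60 ± 0.05 in KO on the log2 scale, with adjusted p of 1.69e-07 and 5.55e-07 in limma, and it was the smallest of the 10 genes in both genotypes.

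Rel, the c-Rel subunit prominent in lymphoid and myeloid cells, had levels of -1.54, -1.72 and -1.54 in WT PBS and of -0.42, -0.48 and -0.39 in WT LPS. Its KO levels were -1.46, -1.52 and -1.90 with PBS and -0.52, -0.62 and -0.60 with LPS. KO PBS replicate 3, on slide 2, was the lowest of all 12 arrays. The rise was 2.25-fold in WT (1.17 ± 0.11 on the log2 scale, adjusted p = 1.46e-06) and 2.07-fold in KO (1.05 ± 0.11, adjusted p = 4.40e-06).

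Relb, the partner of the processed Nfkb2 product in noncanonical signalling, rose from 3.78, 3.78 and 3.85 to 4.76, 4.67 and 4.76 in WT cells. In KO cells it rose from 4.02, 3.99 and 3.87 to 4.63, 4.59 and 4.61. The KO arrays lay above the WT arrays with PBS and below them with LPS. The LPS change was 1.91-fold in WT (0.93 ± 0.05, adjusted p = 1.31e-08) and 1.57-fold in KO (0.65 ± 0.05, adjusted p = 3.01e-07).

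Nfkb1, whose long product is both an IkB-like inhibitor and the precursor of a DNA-binding subunit, stood at 1.11, 1.04 and 1.64 in WT PBS and at 2.28, 2.11 and 2.79 in WT LPS. In KO cells it stood at 1.84, 1.94 and 1.29 with PBS and at 2.52, 2.52 and 2.40 with LPS. Replicate 3 was the highest array of both WT groups, and of the KO PBS arrays replicate 3 was the lowest. The rise of 1.13 ± 0.21 in WT (adjusted p = 0.00044) and 0.79 ± 0.21 in KO (adjusted p = 0.00532) had the largest SE of the 10 genes. With KO PBS replicate 3 as the only PBS array of the KO, which keeps the comparison on slide 2, the KO rise was 1.19.

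Nfkb2, the precursor gene of the noncanonical branch, stood at 4.06, 4.01 and 3.97 in WT PBS and at 5.24, 5.24 and 5.41 in WT LPS. With KO cells the levels were 4.23, 4.27 and 4.39 in PBS and 5.69, 5.70 and 5.59 in LPS. The KO arrays lay above the WT arrays under both conditions. The rise was 2.43-fold in WT (1.28 ± 0.06, adjusted p = 5.9e-09) and 2.58-fold in KO (1.37 ± 0.06, adjusted p = 5.09e-09), the largest among the 5 subunits in both genotypes.

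Nfkbia encodes IkB-alpha, the fast feedback inhibitor that is destroyed and then resynthesised after a signal. Its levels were 6.27, 6.36 and 5.77 in WT PBS and 7.94, 8.12 and 7.87 in WT LPS. In KO cells they were 6.17, 6.05 and 6.15 with PBS and 7.85, 7.81 and 7.84 with LPS. WT PBS replicate 3 was the lowest array, and the groups without LPS overlapped. Nfkbia RNA rose 3.61-fold in WT (1.85 ± 0.12, adjusted p = 9.44e-08) and 3.27-fold in KO (1.71 ± 0.12, adjusted p = 2.33e-07), and its rise in WT ranked 314 of 13283 genes.

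Nfkbib encodes IkB-beta, which binds Rela- and Rel-containing dimers. It rose from 2.97, 3.02 and 3.16 to 4.19, 4.20 and 4.28 in WT and from 3.31, 3.38 and 3.13 to 4.25, 4.26 and 4.17 in KO. The LPS groups overlapped. The change was 1.17 ± 0.07 in WT (adjusted p = 3.35e-08) and 0.95 ± 0.07 in KO (adjusted p = 2.46e-07).

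Nfkbie encodes IkB-epsilon, a further feedback inhibitor of the canonical dimers. It rose from 3.21, 3.31 and 3.08 to 4.34, 4.34 and 4.36 in WT and from 3.15, 3.19 and 3.35 to 4.47, 4.55 and 4.43 in KO. The KO LPS arrays were the 3 highest of the 12. The change was 2.21-fold in WT (1.15 ± 0.07, adjusted p = 3.15e-08) and 2.39-fold in KO (1.25 ± 0.07, adjusted p = 2.05e-08).

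Nfkbiz encodes IkB-zeta, a nuclear protein that is needed for a second wave of LPS genes. Its levels were 2.02, 2.20 and 1.42 in WT PBS and 4.47, 4.48 and 4.36 in WT LPS. In KO cells they were 1.60, 1.62 and 1.53 with PBS and 4.32, 4.36 and 4.32 with LPS. WT PBS replicate 3 lay below every other array, and the other 2 WT PBS arrays above every KO PBS array. The rise was 2.56 ± 0.14 in WT (adjusted p = 2.34e-08) and 2.75 ± 0.14 in KO (adjusted p = 1.74e-08), ranked 121 and 84 of 13283 genes, and it was the largest of the 10 genes in both genotypes.

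Bcl3 encodes a nuclear IkB relative that acts on dimers of the processed subunits. It rose from 5.28, 5.34 and 4.93 to 6.41, 6.50 and 6.44 in WT and from 4.86, 4.81 and 5.14 to 6.24, 6.25 and 6.22 in KO. The KO LPS arrays lay below the WT LPS arrays, whereas the PBS groups overlapped. The change was 2.41-fold in WT (1.27 ± 0.10, adjusted p = 5.14e-07) and 2.46-fold in KO (1.30 ± 0.10, adjusted p = 5.09e-07).

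**Figure D2:**
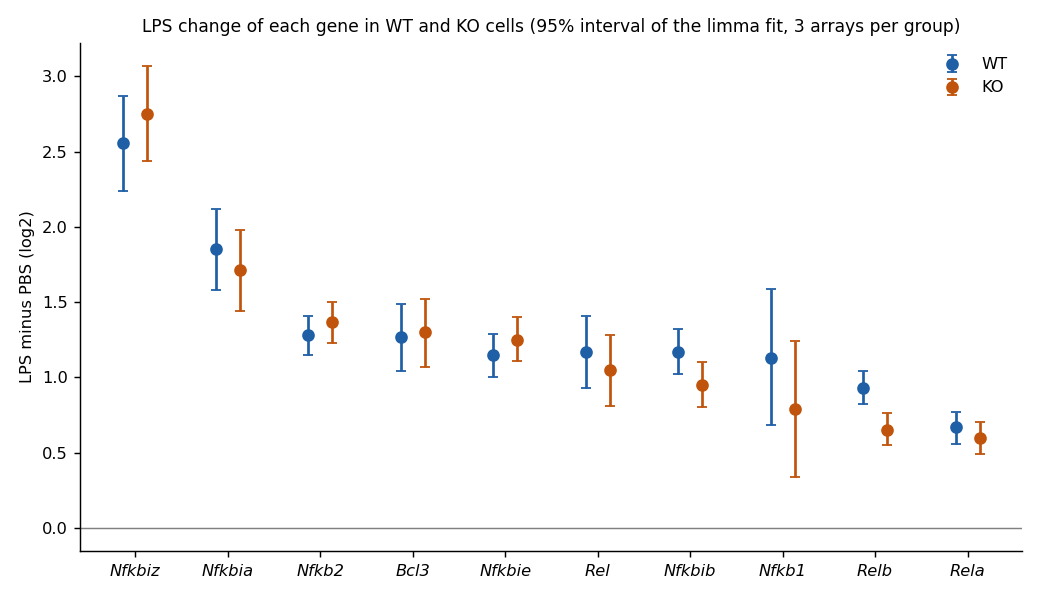
The LPS minus PBS change of each gene on the log2 scale in WT and KO cells, with 95% intervals of the limma fit over 3 arrays per group and genes ordered by the mean of both changes. Nfkbiz had the largest changes, 2.56 and 2.75, and Rela the smallest, 0.67 and 0.60.

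Ordered by the mean change of both genotypes, the genes ran Nfkbiz, Nfkbia, Nfkb2, Bcl3, Nfkbie, Rel, Nfkbib, Nfkb1, Relb and Rela. The 95% interval of Nfkbiz lay above that of Nfkbia in both genotypes (in WT 2.24 to 2.87 against 1.58 to 2.12), whereas from Nfkb2 to Nfkb1 neighbouring intervals overlapped in both. The change was the larger in KO for 4 genes, Nfkbiz, Nfkb2, Bcl3 and Nfkbie, and the larger in WT for the other 6. That order is of the brightest probe of each gene. For Nfkbiz the dimmer probe rose by 1.65 ± 0.11 in WT and by 1.61 ± 0.11 in KO, less than the brightest probe, and would place it near Nfkbia.

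For the other 4 genes with a second probe the probes gave closer rises. The dimmer Relb probe rose by 0.93 ± 0.07 in WT and by 0.57 ± 0.07 in KO, and that of Nfkb2 by 1.28 ± 0.08 and 1.16 ± 0.08. The dimmer Nfkbib probe rose by 1.13 ± 0.12 and 0.78 ± 0.12, and that of Rela by 0.65 ± 0.17 and 0.48 ± 0.17. All of these changes passed the threshold when the dimmer probe stood for the gene, with adjusted p between 3.48e-08 and 0.0276. These probes were set against each other after their values had been seen.

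In the absence of LPS, KO samples differed from WT samples in 1 of the 10 genes. Nfkb2 was 1.21-fold higher, by 0.28 ± 0.06 on the log2 scale (95% interval 0.15 to 0.41, adjusted p = 0.0113), with 3 of 3 KO arrays above all WT arrays. Such a lack of overlap, with KO higher, was seen in 2 of the 10 genes and in 16.7% of all genes. Of all genes tested, 14.1% passed the threshold in this comparison, 8.06% higher, so the share among the 10 genes was near the background. For the other 9 genes the differences lay between -0.30 and 0.43. Relb was at 0.16 ± 0.05 (95% interval 0.05 to 0.26, adjusted p = 0.0514) and its groups did not overlap, and Nfkbib was at 0.22 ± 0.07 (0.07 to 0.37, adjusted p = 0.0531). Bcl3 was at -0.25 ± 0.10 (adjusted p = 0.134), Nfkbiz at -0.30 ± 0.14 (adjusted p = 0.188) and Nfkb1 at 0.43 ± 0.21 (adjusted p = 0.189). The intervals of Rela (-0.07 to 0.14), Nfkbie (-0.12 to 0.18), Rel (-0.26 to 0.21) and Nfkbia (-0.28 to 0.27) lay around 0. With PBS the B-cell marker sums were lower in KO than in WT (111 to 117 against 133 to 169). Neutrophil sums were higher (5.85 to 9.11 against 3.16 to 4.15), and the sums of the other cell types overlapped. The part of these cells in the differences was not tested.

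These differences with PBS shifted with the arrays used. On slide 1 alone, which leaves KO PBS replicates 1 and 2, Nfkb2 was at 0.23 (adjusted p = 0.0597), Relb at 0.20 (adjusted p = 0.0415) and Nfkbib at 0.29 (adjusted p = 0.0342). Without WT PBS replicate 3, the lowest of the WT PBS arrays in Nfkbiz, Nfkbia and Bcl3, Nfkbiz was at -0.53 (adjusted p = 0.000243), Bcl3 at -0.37 (adjusted p = 0.0091), Nfkbib at 0.28 (adjusted p = 0.0193) and Relb at 0.18 (adjusted p = 0.0355). Without KO PBS replicate 3 of slide 2, Relb was at 0.20 (adjusted p = 0.0122), Nfkbib at 0.29 (adjusted p = 0.0115) and Bcl3 at -0.35 (adjusted p = 0.0411). That array differed from the other KO PBS arrays by -0.60 in Nfkb1, -0.41 in Rel, -0.22 in Nfkbib and 0.30 in Bcl3. The dimmer Nfkb2 probe was at 0.16 (adjusted p = 0.181).

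After LPS, Nfkb2 was again the 1 gene of 10 that passed the threshold between KO and WT, 1.29-fold higher in KO (0.36 ± 0.06, 95% interval 0.23 to 0.50, adjusted p = 0.00114). Of all genes, 39.5% passed in this comparison, 20% higher and 19.5% lower. The difference was not seen with its dimmer probe, which gave 0.04 ± 0.08 (adjusted p = 0.69). With the slide as a term it was 0.22 ± 0.10 (adjusted p = 0.2). Since KO LPS and WT LPS arrays lay on different slides, that term rests on KO PBS replicate 3 against replicates 1 and 2. Slide and genotype cannot be told apart within LPS. The B-cell, mast-cell and mesothelial and fibroblast marker sums were lower in KO than in WT after LPS, and those of the other cell types overlapped. The part of these cells in the differences was not tested.

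The other 9 genes lay between -0.21 and 0.14 after LPS. Relb was at -0.12 ± 0.05 (adjusted p = 0.0657), Bcl3 at -0.21 ± 0.10 (adjusted p = 0.119) and Nfkbie at 0.14 ± 0.07 (adjusted p = 0.117). In 5 genes, Rel, Relb, Nfkbia, Nfkbiz and Bcl3, all KO arrays lay below all WT arrays, and in 2, Nfkb2 and Nfkbie, above, as was so for 30.1% and 28.2% of all genes. Without KO PBS replicate 3, which enters only through the shared spread, Relb at -0.12 passed (adjusted p = 0.0231), and without WT PBS replicate 3 Bcl3 at -0.21 passed (adjusted p = 0.0338). The dimmer Nfkbiz probe was lower in KO by 0.36 ± 0.11 (log2 difference -0.36, adjusted p = 0.0234), where the brightest gave -0.10 ± 0.14. Scaling to the array median moved the median of all genes from -0.01 to -0.12 and the calls over all genes from 2653 higher and 2589 lower to 1729 and 4003. Under it Relb at -0.23 (adjusted p = 0.0148) and Bcl3 at -0.32 (adjusted p = 0.0249) passed too.

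**Figure D3:**
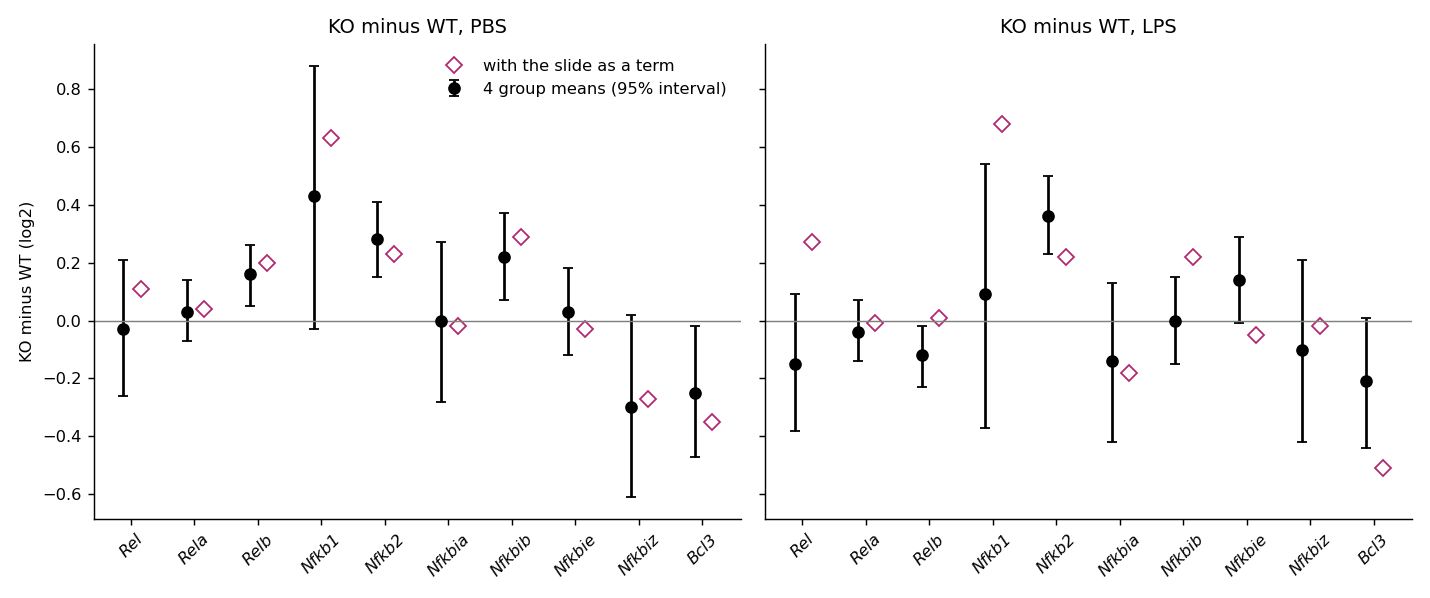
The KO minus WT difference of each gene on the log2 scale with PBS (left) and after LPS (right). Black points carry the 95% interval of the limma fit over 4 group means of 3 arrays, and open diamonds give the difference with the slide as a term. That term rests on KO PBS replicate 3 against the other KO PBS arrays. The interval of Nfkb2 lay above 0 in both panels, at 0.28 and 0.36, and the diamonds departed most from the points after LPS, where Rel moved from -0.15 to 0.27 and Nfkb1 from 0.09 to 0.68.

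The LPS response itself differed between genotypes in 1 of the 10 genes, against 4.31% of all genes, of which those with a lower change in KO were 3.39% and those with a higher change 0.926% of all genes. The rise of Relb was smaller in KO by 0.28 ± 0.07 on the log2 scale (interaction -0.28, adjusted p = 0.0424). The dimmer Relb probe gave -0.36 ± 0.10 (adjusted p = 0.0734) and the slide as a term -0.19 ± 0.07 (adjusted p = 0.203). Leaving out each array in turn, the call held in 3 of 12 fits, with adjusted p between 0.00327 and 0.121. The interaction was -0.22 ± 0.10 for Nfkbib (adjusted p = 0.227), -0.34 ± 0.29 for Nfkb1 (adjusted p = 0.531) and 0.20 ± 0.20 for Nfkbiz (adjusted p = 0.615). Without KO PBS replicate 3 Nfkbib passed at -0.29 (adjusted p = 0.0292), and without WT PBS replicate 3 Nfkbiz passed at 0.42 (adjusted p = 0.0104). For the other 6 genes it lay between -0.14 and 0.11 with adjusted p of at least 0.54.

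The genes that act on NF-kB moved in both directions with LPS, and the counts of each list stand beside 33.7% called higher and 31% called lower among all genes in WT, and 35.1% and 32% in KO. Of 18 genes of IKK and the adaptors and kinases above it, 10 rose and 2 fell in WT, and 9 rose and 5 fell in KO, with medians of 0.29 and 0.21. The largest rise was of Map3k8, a kinase that binds the Nfkb1 precursor, at 1.67 ± 0.10 in WT and 1.26 ± 0.10 in KO. Irak3, an inhibitory member of its kinase family, rose by 0.77 and 0.74, and Myd88, the adaptor of Toll-like receptors, by 0.66 and 0.38. Of the IKK subunits, named here after their values were seen, Ikbkb rose by 0.35 and 0.45, Ikbkg fell by 0.50 in WT and by 0.41 in KO, and Chuk was at 0.17 and 0.19 without passing.

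In the noncanonical branch, which acts through Nfkb2 and Relb, 7 of 9 tested genes rose and 1 fell in both genotypes. Cd40, a receptor that feeds this branch, rose by 2.62 ± 0.12 in WT and 1.78 ± 0.12 in KO. Birc2 rose by 0.97 and 0.77, Birc3 by 1.24 and 1.10, and Traf3 by 0.84 and 0.80, and all of these encode parts of the complex that destroys the NF-kB-inducing kinase. Map3k14, the gene of that kinase, named here after its values were seen, fell by 0.32 in WT and by 0.41 in KO.

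Among genes that remove IkB or nuclear Rela, 4 of 7 rose and 2 fell in both genotypes. Fbxw11, which like Btrc recognises phosphorylated IkB, rose by 0.28 in WT (adjusted p = 0.00126) and by 0.16 in KO (adjusted p = 0.0285), but under quantile normalization it was at 0.08 in WT (adjusted p = 0.303). Pdlim2, a ligase that targets nuclear Rela, fell by 0.96 in WT and by 1.36 in KO, and Btrc, the subunit that recognises phosphorylated IkB, by 0.77 and by 0.75. Of 5 further IkB relatives and regulators, 2 rose and 2 fell in each genotype. Nfkbid, another nuclear IkB gene, rose by 1.37 ± 0.07 in WT and 1.25 ± 0.07 in KO. Nkrf, a repressor of NF-kB targets, rose by 0.90 and 1.10. The genes Nkiras1 and Nkiras2, small GTPases that bind IkB, fell by 0.56 and 0.25 in WT and by 0.42 and 0.36 in KO.

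Of 28 textbook NF-kB targets, 27 rose and 1 fell in WT, and 26 rose and 1 fell in KO, with medians of 1.85 and 1.90. Tnfaip3, an enzyme that ends NF-kB signalling, rose by 2.25 ± 0.06 in WT and 2.40 ± 0.06 in KO, and Traf1, an adaptor of TNF-family receptors, by 2.29 and 2.20. All 6 genes known to need IkB-zeta rose in both genotypes, with medians of 3.29 and 2.95. Among these Ebi3, a cytokine subunit, rose by 2.24 and 2.13, and Csf2, a myeloid growth factor, by 4.33 and 4.62. Il12b, another cytokine subunit, was not well above background in WT PBS, and its rise in WT was at least 2.36-fold, against the lowest signal well above background there. Of 6 reference genes, 3 rose and 1 fell in each genotype, and Gapdh fell by 0.35 and by 0.44.

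**Figure D4:**
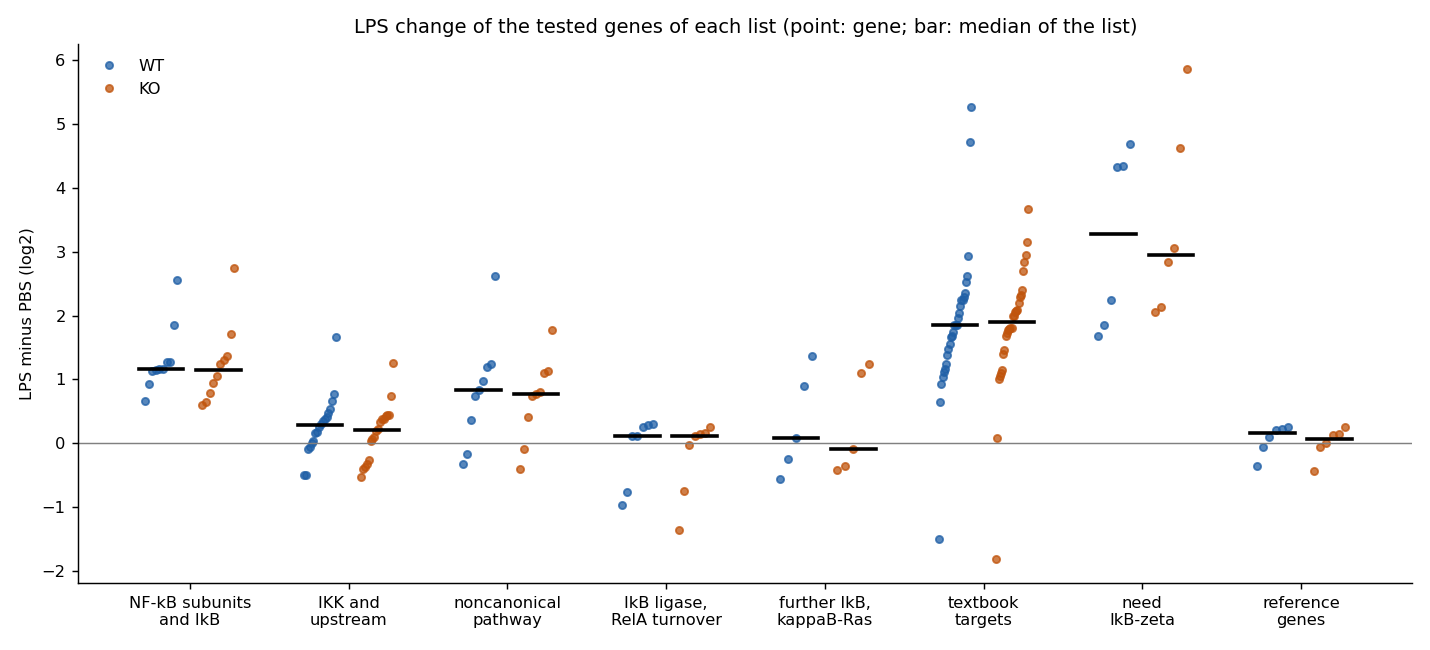
The LPS minus PBS change on the log2 scale of each tested gene in 8 lists, WT on the left and KO on the right of each list, with a bar at the list's median. The NF-kB subunits and IkB genes lie between 0.60 and 2.75 in both genotypes, whereas the IKK, ligase and further-IkB lists spread on both sides of 0.

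Between genotypes with PBS, 3 of 18 IKK and upstream genes were higher in KO, Irak3 by 0.49 (adjusted p = 7.11e-05), Ikbke by 0.29 (adjusted p = 0.0163) and Myd88 by 0.28 (adjusted p = 0.00294), against 8.06% of all genes called higher, 6.05% lower and 14.1% either way. With the replicate block Ikbke (adjusted p = 0.144) and Myd88 (adjusted p = 0.107) no longer passed. Equal replicate numbers did not pair KO with WT arrays, and that fit called 216 of all genes where the main fit called 1874. Ikbke also did not pass under median scaling (adjusted p = 0.0988) or with 1 array left out (adjusted p = 0.0623). Of the 28 targets 8 were higher and 2 lower, and 8 and 0 with the slide as a term. The chemokine Cxcl1 at 2.03 and Cxcl10 at 1.56 were above WT. Il6 was below WT at -1 (adjusted p = 0.0222), and did not pass with the slide as a term (adjusted p = 0.0561). Of the 6 genes known to need IkB-zeta 2 were higher and 2 lower, and 2 and 0 with that term. Among all genes 9.48% were higher and 5.68% lower with PBS and the slide as a term. After LPS 3 of the 18 upstream genes were higher and 6 lower in KO, and with the slide as a term 3 were higher and 0 lower. Among all genes 20% were higher and 19.5% lower after LPS, and 2.6% and 3.24% with the slide as a term. Of the targets 7 were higher and 5 lower after LPS, and 3 and 0 with the slide as a term. Nfkbid was lower in KO after LPS by 0.26 ± 0.07 (log2 difference -0.26, adjusted p = 0.0157), and with the slide as a term it stood at -0.03.

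Over the 12 arrays each of the 10 genes had close companions among 4818 genes that varied by at least 1 on the log2 scale. Pearson's r for the nearest genes was 0.998 each for Nfkbiz with Ccl4, a chemokine, and Adora2b, an adenosine receptor, and for Nfkbia it was 0.998 with Dtx2 and 0.997 with Cd200. Rela was most like Hivep1 (0.998) and Gabpb1 (0.995), Rel most like Birc3 and Trmt61a (0.996 each), and Relb most like Dus4l (0.998) and Jak2 (0.995). Nfkb2 was nearest to Pgm5 and Ptgs2os2 (0.994 each), Bcl3 to Hdc (0.995) and Ly6k (0.994), Nfkbib to Adm and Smyd2 (0.997 each) and Nfkbie to Umps and Ifrd2 (0.997 each). Nfkb1 had the lowest best value, 0.98 with Pik3r5 and with Atxn1. These values describe arrays that share the same LPS contrast, slides and labelling.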

How the data were processed

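Per the file headers, the authors' deposited files hold Agilent scanner output with a processed signal intensity for each spot, made with Feature Extraction 11.5.1.1 per the submitters' processing notes, already background-subtracted and not scaled between arrays. RNA was extracted with TRIzol and labelled with Cy3, per the labels' protocols. The log2 of the deposited intensity was scaled by subtracting each array's 75th percentile over non-control spots, whose signal lay between 469.6 and 574.1. Between 48.8% and 57.1% of spots were well above background and 0 were saturated. On each array 76 to 125 spots carried a flag for an uneven or outlying signal. A flagged spot was dropped only where its probe had another spot without a flag, and its value was used otherwise. The 59305 non-control spots held 56605 distinct probes, so few probes had such a second spot. The number of arrays limits the precision.

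A probe entered the fit when every one of the 3 arrays in some group showed it well above background. Probes were named by matching their transcript to RefSeq (GRCm38.p6), which named 32994 of 56605 probes, and the brightest kept probe stood for a gene. The array's own positions use another assembly and are not given. A mean per group was fitted over 12 arrays in limma 3.58.1 (R 4.3.3, empirical Bayes with trend), with Benjamini-Hochberg adjustment over 13283 genes and a threshold of 0.05. The steps were tested on simulated data. Groups came from the sample titles.

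The 10 genes and all lists were chosen with earlier results of these data known. From each list up to 4 called genes per comparison with the smallest p could be named (2 if none was called), and for likeness the 2 genes with the highest r. Residuals of equally numbered WT arrays correlated at 0.105, 0.371 and 0.481 between PBS and LPS, each above 0.1, which was taken as pairing although the labels state none and replicate 1 matched number 2 best. Those of KO arrays, at 0.04, 0.113 and 0.081, were not taken as pairs, although each KO LPS array matched its own number best. The main fit used no pairing, which entered only as the replicate block. No pair of arrays was a copy. Alternatives covered the background correction (normexp, offset 50, on median spot signals, since the mean signal planned for it was not used here), scaling, filters, probes, the variance trend, the slide, the replicate block and each array left out. The dimmer probe was added after seeing the data.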

Additional observations from a re-analysis of the deposited data

Results flagged for a closer look

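The following genes had an LPS change that differed between KO and WT by the interaction test in limma (KO minus WT, log2 scale), which is what marked them for a closer look. Among the genes described, Relb had an interaction of -0.28 (adjusted p = 0.0424), from changes of 0.93 in WT and 0.65 in KO. Among textbook targets, Cxcl10 had -2.02 (adjusted p = 4.54e-05), Ccl5 -0.87 (adjusted p = 0.0301) and Gadd45b -0.36 (adjusted p = 0.042). In the noncanonical branch, Tnfrsf13c had 0.38 (adjusted p = 0.00228) and Cd40 -0.84 (adjusted p = 0.0169). Tnfrsf13c was lower in KO with PBS (log2 difference -0.58, adjusted p = 1.03e-05) and after LPS (-0.2, adjusted p = 0.00373). B-cell marker sums were also lower in KO under both conditions, and the part of B cells in the values of Tnfrsf13c was not tested. Pdlim2 had -0.39 (adjusted p = 0.0217), Myd88 -0.29 (adjusted p = 0.0319) and Tbk1 -0.35 (adjusted p = 0.0324). With the slide as a term, Cxcl10 at -1.82 (adjusted p = 0.000762), Tnfrsf13c at 0.34 (adjusted p = 0.0136) and Cd40 at -0.48 (adjusted p = 0.0447) still passed, and the other 6 did not. Tnfrsf13c did not pass with the mean of its probes (adjusted p = 0.0576), nor Cd40 with 1 array left out (adjusted p = 0.0553).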

How the results depend on the processing

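All 10 genes stayed called higher after LPS in WT under each of the 23 settings that covered them, slide 1 alone included. In KO they did so under every setting in which calls were counted, which leaves out slide 2 alone. Leaving out each array was included, and the dimmer probes gave the same calls. Slide 2 alone left 1 PBS array of the KO, so it gives only a size of change. There all 10 genes were higher with LPS, from 0.62 for Rela to 2.81 for Nfkbiz on the log2 scale. Calls between genotypes changed with several settings, and the cause was not tested. Between KO and WT with PBS, 1874 of all genes were called, 1087 on slide 1 alone and 917 to 2579 with an array left out (917 without WT PBS replicate 1, 1043 without WT PBS replicate 2). With the replicate number as a replicate block, 216 were called and Nfkb2 at 0.28 had an adjusted p of 0.138. The block changed no LPS call of the 10 genes, and the numbers did not pair KO with WT arrays. Of the 10 genes, 1 was higher with PBS, 2 under normexp, under the filter on all 12 arrays and on slide 1 alone, 3 with the slide as a term, 0 with the block and 1 to 3 with an array left out. None was lower, but 1 was with the slide as a term and 0 to 2 were with an array left out. For this comparison the slide as a term gave the same differences as leaving out KO PBS replicate 3, so they are not separate checks. Slide 1 alone used the same PBS arrays.

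After LPS 5242 of all genes were called between KO and WT and 776 with the slide as a term. That term rests on KO PBS replicate 3 against the other KO PBS arrays, here and for the interaction. Of the 10 genes 1 was higher, 2 under quantile normalization and 0 with the slide as a term, and 0 were lower, 2 under median scaling, 1 with the block and 0 to 1 with an array left out. For the interaction 573 of all genes were called, from 360 (without WT PBS replicate 1) to 2797 (without KO PBS replicate 3), with 361, 365 and 960 without KO PBS replicate 1, KO LPS replicate 1 and WT PBS replicate 3. Of the 10 genes 1, Relb, had a lower change, and 0 did under normexp, quantile normalization, median scaling, no filter, the mean of probes, no variance trend, the slide as a term or the block, and 0 to 2 did with an array left out. A higher change was called for 0 to 1 genes.

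Values that changed sign, none of which passed the threshold after the change, follow. With the slide as a term they were the interactions of Bcl3 (-0.17), Nfkb1 (0.06), Nfkb2 (-0.01), Nfkbie (-0.02), Rel (0.15), Nfkbil1 (0.05) and Nfkbid (0.03), the KO difference with PBS of Nfkbie (-0.03) and Rel (0.11), and that after LPS of Nfkbie (-0.05), Rel (0.27) and Relb (0.01). Cd40, called lower in KO after LPS, was at 0.18 with the slide as a term. On slide 1 alone Nfkbie was at -0.03 and Rel at 0.11 with PBS. Under median scaling Nfkbie (-0.02) and Rela (-0.01) with PBS, Nfkb1 (-0.02) and Nfkbib (-0.11) after LPS and the interaction of Bcl3 (-0.03) turned. Under normexp Nfkbia (0.05) and Rel (0.04) with PBS and Nfkb1 (0) after LPS turned. Under quantile normalization Rela with PBS (-0.02) and after LPS (0.02), the interactions of Rela (0.04), Nfkbia (0.01), Ppia (0.02) and Rplp0 (0.05), and the LPS change of Rbx1 in KO (-0.01), called higher otherwise, turned. With the mean of probes the interaction of Nfkb2 (-0.02) and the difference of Nfkbib after LPS (-0.08) turned. With the dimmer probe the interactions of Nfkb2 (-0.12) and Nfkbiz (-0.04) and the differences after LPS of Nfkbib (-0.16) and Rela (0) turned. With each array left out in turn, the difference with PBS ran from -0.11 to 0.11 for Rel, from -0.19 to 0.11 for Nfkbia and from -0.03 to 0.09 for Nfkbie. That after LPS ran from -0.02 to 0.03 for Nfkbib and from -0.06 to 0.28 for Nfkb1, and the interaction from -0.05 to 0.16 for Bcl3 and from -0.25 to 0.04 for Nfkbia. Probes near background limit Il12b to a bound.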
